A study of Homo sapiens with 6 samples.

Results

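miR-193a-3p, miR-193b-3p and miR-365a-3p are mature microRNAs best known together as regulators of cyclin D1, the cyclin that drives cells from G1 towards DNA synthesis. They were chosen by identity, as the rows of the value table whose miRBase mature accession is MIMAT0000459 (miR-193a-3p), MIMAT0002819 (miR-193b-3p) or MIMAT0000710 (miR-365a-3p). This gave 3 of the 1212 rows of the table, and all 3 had a value on all 6 arrays. The arrays carried RNA from the human hepatocellular carcinoma line Huh7. In 3 samples the cells had been kept for 72 h in 10 mM metformin, and in 3 control samples they had been kept for 72 h without it. All samples shared the same medium with fetal bovine serum, so the control is an untreated culture of the same line and no second line was compared.

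A microRNA is cut from a hairpin transcript and guides the silencing complex to messenger RNAs that pair with its seed, bases 2 to 8 from the 5′ end. miR-193a-3p and miR-193b-3p are paralogs with the same seed, whereas miR-365 has a different seed and shares its genomic neighbourhood with them. In cultured tumour cells, miR-193b and miR-365 have been reported to lower cyclin D1, and miR-193a-3p to lower the anti-apoptotic protein MCL1. Metformin is a biguanide used in diabetes that inhibits mitochondrial complex I and activates the energy sensor AMPK. The comparison addresses which microRNAs differ in level between liver cancer cells kept with and without the drug. Cyclin D1 itself was not measured on these arrays.

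The mature sequences, from RefSeq on GRCh38.p14, are printed because they show which members could be told apart by a probe. Capitals mark the seed.
miR-193a-3p: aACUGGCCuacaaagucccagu
miR-193b-3p: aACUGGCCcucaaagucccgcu
miR-365a-3p: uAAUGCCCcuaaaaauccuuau
miR-365b-3p: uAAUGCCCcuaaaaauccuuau
The 2 miR-193 sequences are the same at 18 of 22 bases. They differ by U9C, A10U, A20G and G21C, with the miR-193a-3p base first, the position counted from 1 at the 5′ end, and the miR-193b-3p base last. Among the 2370 mature names in the RefSeq table, these 2 were the ones with the seed ACUGGCC. The seed AAUGCCC was likewise found in 2 names, miR-365a-3p and miR-365b-3p. Those 2 differ at 0 of 22 bases, so the row called miR-365a-3p cannot separate them, and its value is that of miR-365 from both genes.

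The hairpins show how the members are arranged, with the mature 3p arm in capitals. On chromosome 16, plus strand, MIR193B (chr16:14303967-14304049) and MIR365A (chr16:14309285-14309371) are 5235 bases apart. Both lie within MIR193BHG, a long non-coding RNA gene at chr16:14301381-14331062.
MIR193B: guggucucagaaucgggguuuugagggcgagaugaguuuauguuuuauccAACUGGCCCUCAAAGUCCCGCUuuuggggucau
MIR365A: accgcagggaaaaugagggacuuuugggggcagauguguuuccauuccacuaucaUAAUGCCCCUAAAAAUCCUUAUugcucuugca
On chromosome 17, plus strand, MIR193A (chr17:31559996-31560083) and MIR365B (chr17:31575411-31575521) are 15327 bases apart. MIR365B lies within the long non-coding RNA gene MIR365BHG (chr17:31571142-31575659), and no other listed gene overlaps MIR193A.
MIR193A: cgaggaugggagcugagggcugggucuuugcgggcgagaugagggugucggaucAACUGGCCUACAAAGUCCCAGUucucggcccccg
MIR365B: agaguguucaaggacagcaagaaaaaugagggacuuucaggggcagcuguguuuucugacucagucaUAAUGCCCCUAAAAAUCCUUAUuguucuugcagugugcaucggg
Each locus thus holds a miR-193 and a miR-365 hairpin. The gene table used here lists spans only, with no exons or introns.

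The unit of every level below is the intensity that the authors had processed before deposit, treated here as linear, in arbitrary units. The 6 arrays held 1099 to 1209 probes with a value, with medians of 22.8 to 24.1 and a lowest value of 4.70 on any array. The 3 members were above those medians on every array. The margin was smallest for miR-365a-3p on control replicate 1, at 30.9 against a median of 22.9. A value on every array was available for 1038 probes. Among them, ranked by mean log2 intensity, miR-193a-3p was 75th, miR-193b-3p was 105th and miR-365a-3p was 189th. They therefore stood among the 260 brightest probes, called the bright probes below (mean intensity of at least 32.5). Probe brightness depends on more than abundance, so these ranks do not order the microRNAs by amount. The 4 other arms of the same hairpins, 15 other microRNAs reported to act on cyclin D1 and 13 cell type markers, miR-122-5p of hepatocytes among them, had also been listed. Beyond the 3 members, the tables used here pair no mature accession with a name, so those lists were not analysed here and the labelled cell type was not checked against markers.

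No member passed the test for a change with metformin. All 3 had a higher mean with metformin, by 1.09- to 1.23-fold, and for each the metformin and control values overlapped. An adjusted p under 0.05 by limma was reached by 0 of the 3 members and by 0 of 1038 probes (0%). At an unadjusted p under 0.05 there were 0 members and 28 probes (2.70%). Groups that did not overlap were found for 0 members, against 79 probes (7.61%). A higher mean with metformin was seen for 549 of the 1038 probes (52.9%), and for 183 of the 257 other bright probes (71.2%), whose median log2 difference was 0.10. The shared direction of the members was thus also that of most bright probes.

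miR-193a-3p, the paralog encoded on chromosome 17, had intensities of 162.9, 199.1 and 195.1 on the metformin arrays 1, 2 and 3. On the control arrays 1, 2 and 3 it had 134.9, 145.8 and 185.0. Metformin replicates 2 and 3 were the highest of all arrays, but control replicate 3 exceeded metformin replicate 1. The mean was 185.7 ± 19.8 with metformin and 155.2 ± 26.3 in control (SD, n = 3 each). The log2 difference was 0.27 (SE 0.24, 95% interval -0.28 to 0.81), a ratio of 1.20 with an interval of 0.82 to 1.76. The limma adjusted p was 0.991, and a two-sided exact permutation test on the log2 values gave p = 0.2 (0.3 after Benjamini-Hochberg adjustment over the 3 members). With 3 against 3 arrays that test cannot go below 0.1.

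miR-193b-3p, its seed paralog encoded beside MIR365A on chromosome 16, had intensities of 92.0, 110.4 and 115.3 on the metformin arrays 1, 2 and 3. The control arrays 1, 2 and 3 gave 74.4, 77.9 and 107.5. The arrays fell almost in the same order as for miR-193a-3p, with control replicate 3 again above metformin replicate 1. The mean was 105.9 ± 12.3 with metformin and 86.6 ± 18.2 in control (SD, n = 3 each). The log2 difference was 0.30 (SE 0.25, 95% interval -0.27 to 0.88), a ratio of 1.23 (0.83 to 1.83). Its limma adjusted p was 0.991 and its two-sided exact permutation p was 0.2 (0.3 adjusted over the 3 members).

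miR-365a-3p, which carries the other seed, had intensities of 44.9, 43.4 and 42.0 on the metformin arrays 1, 2 and 3. The control arrays 1, 2 and 3 gave 30.9, 46.0 and 43.9. Control replicate 1 was the lowest array, and the other control values lay above the middle metformin value. The mean was 43.4 ± 1.45 with metformin and 40.3 ± 8.18 in control (SD, n = 3 each). The log2 difference was 0.13 (SE 0.24, 95% interval -0.43 to 0.69), a ratio of 1.09 (0.74 to 1.62), with a limma adjusted p of 0.991 and a two-sided exact permutation p of 0.9. Its direction rested on a single array, since without control replicate 1 the log2 difference was -0.05. That array ranked miR-365a-3p at the 71.9 percentile of its own values, whereas the other 5 arrays ranked it between the 80.7 and the 86.8 percentile. The lowest value on control replicate 1 was 5.866739332, whereas the lowest values on the other 5 arrays carried fewer decimals. The labels give no reason, and whether that array was processed differently was not tested.

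**Figure D1:**
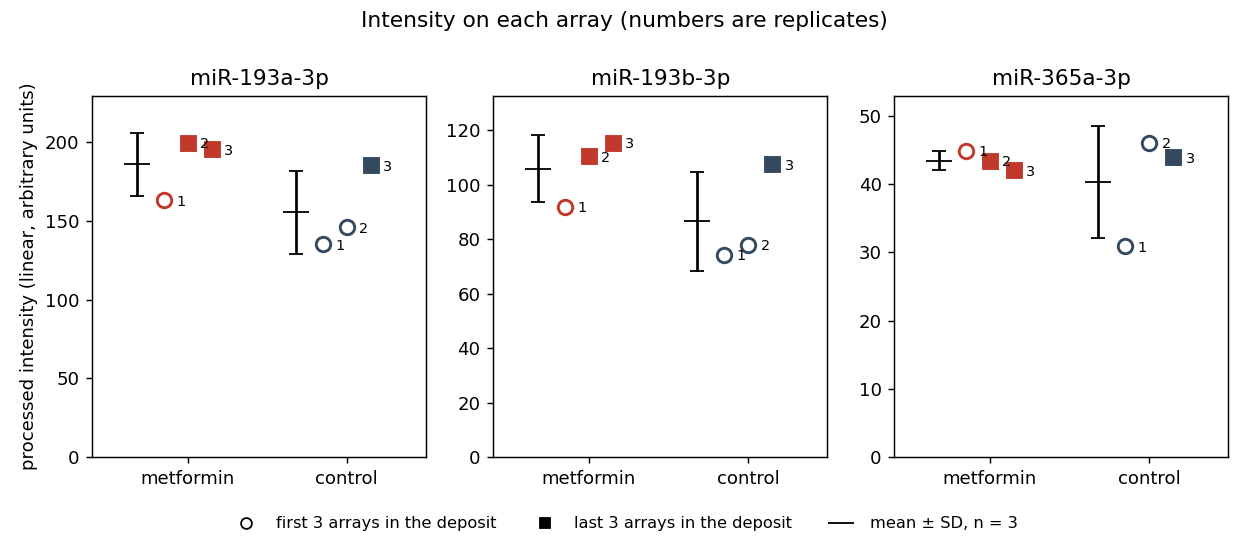
Processed intensity (treated as linear, arbitrary units) of miR-193a-3p, miR-193b-3p and miR-365a-3p on each array, metformin left of control, with points numbered by replicate and black bars for the mean ± SD (n = 3). Open circles are the first 3 arrays in the deposit and filled squares the last 3. The groups overlap in each panel, and for miR-365a-3p control replicate 1, at 30.9, stands below all other arrays.

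The spread between arrays of a group was moderate for each member. The coefficient of variation was 10.7% with metformin and 17.0% in control for miR-193a-3p. It was 11.6% with metformin and 21.0% in control for miR-193b-3p. For miR-365a-3p it was 3.34% with metformin and 20.3% in control. The log2 SDs of miR-365a-3p were 0.05 with metformin and 0.31 in control, so its pooled value below describes neither group. The within-group SD pooled over both groups was 0.20, 0.24 and 0.22 on the log2 scale for miR-193a-3p, miR-193b-3p and miR-365a-3p, close to the median of 0.24 over the other bright probes and below the median of 0.38 over all 1038 probes.

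This precision bounded the difference in intensity. For all 3 members the 95% interval lay between a 2-fold decrease and a 2-fold increase, as it did for 229 of the 260 bright probes (88.1%) and for 570 of all 1038 (54.9%). The intervals carry no adjustment for multiple probes. The bound was not kept in every refit. Without control replicate 3 the interval of miR-193b-3p reached 1.08 and that of miR-193a-3p reached 1.01 on the log2 scale, and without metformin replicate 1 that of miR-193b-3p reached 1.05. Smaller changes were not bounded, since the intervals reached ratios of 1.76 for miR-193a-3p, 1.83 for miR-193b-3p and 1.62 for miR-365a-3p.

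**Figure D2:**
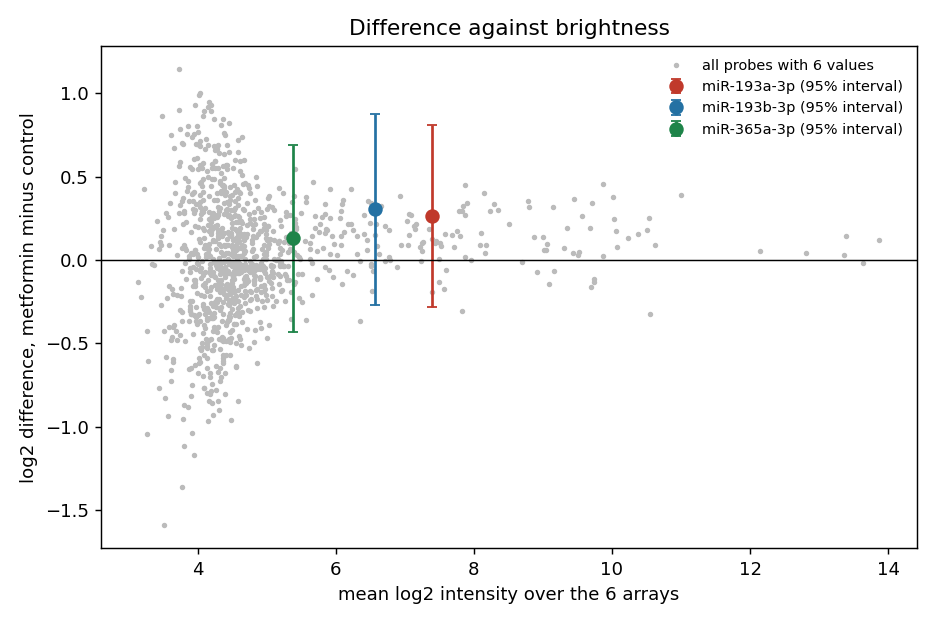
Log2 difference in intensity, metformin minus control, against the mean log2 intensity over the 6 arrays for 1038 probes measured on every array (grey) and for the 3 members (coloured, with 95% intervals). The differences of 0.27, 0.30 and 0.13 for miR-193a-3p, miR-193b-3p and miR-365a-3p lie within the cloud of probes of like brightness, and each interval spans 0.

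The order of the arrays in the deposit moved with the 2 miR-193 members. The labels name no batch, but the 6 arrays are listed as control 1, metformin 1, control 2, then metformin 2, control 3, metformin 3. For miR-193a-3p the last 3 had 185.0 to 199.1 and the first 3 had 134.9 to 162.9. For miR-193b-3p the last 3 had 107.5 to 115.3 and the first 3 had 74.4 to 92.0. These 2 sets do not overlap for either miR-193 member, while for miR-365a-3p they do. The last 3 arrays lay wholly above the first 3 for 133 of the 1038 probes (12.8%) and for 76 of the other 257 bright probes (29.6%), so this separation was common among bright probes. Since 2 of the last 3 arrays and 1 of the first 3 are metformin arrays, the treatment comparison is not balanced over this order.

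The differences were also taken within each set, where 1 of the groups has only 1 array. Within the first 3 arrays the log2 difference, from 1 metformin and 2 control arrays, was 0.22 for miR-193a-3p, 0.27 for miR-193b-3p and 0.25 for miR-365a-3p. Within the last 3, from 2 metformin arrays and 1 control array, it was 0.09, 0.07 and -0.04 in the same order. The median over the other 257 bright probes was 0.05 within the first 3 and 0.01 within the last 3. With the 2 sets as a block in limma, the difference over all 6 arrays was 0.15 for miR-193a-3p and 0.17 for miR-193b-3p, and 0.11 for miR-365a-3p, each with an adjusted p of 0.986. The labels do not record what distinguishes the sets.

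The general level of bright probes also differed between arrays. The median deviation of the other 257 bright probes from their own means was -0.07, 0.19 and 0.03 on the metformin arrays 1, 2 and 3 and -0.02, -0.19 and 0.08 on the control arrays 1, 2 and 3, in log2 units. After each array was centred on that level, the log2 differences were 0.16 for miR-193a-3p, 0.19 for miR-193b-3p and 0.02 for miR-365a-3p. This centring lowered the median difference of all probes to -0.08, against 0.03 before it. The same amount is subtracted from every probe on an array, so the place of the members relative to that median could not change.

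Among the members, the seed paralogs varied together most closely. Over the 6 arrays the log2 intensities of miR-193b-3p and miR-193a-3p had a Pearson r of 0.99 (two-sided exact permutation p = 0.0056, 0.017 after adjustment over the 3 pairs of members) and a Spearman rho of 0.94 (exact permutation p = 0.017, adjusted 0.05, which does not pass). These permutations treat the 6 arrays as interchangeable, although both members separated by the order in the deposit. Their p-values therefore cannot tell a relation of the paralogs from differences between arrays that many probes share. Without the 2 arrays farthest from the median of miR-193b-3p, control replicates 1 and 2, r was 0.96 over 4 arrays. Once each group's mean was subtracted, r was 0.98. Within the first 3 arrays of the deposit it was 0.98 and within the last 3 it was 0.60, each over only 3 points. After centring on the bright probes it was 0.98 over all 6 arrays.

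The log2 ratio of the paralogs was steadier than either member. As miR-193b-3p minus miR-193a-3p it was -0.81 ± 0.05 with metformin and -0.85 ± 0.06 in control (SD, n = 3 each). The log2 intensities themselves had SDs of 0.16 with metformin and 0.24 in control for miR-193a-3p, and 0.17 with metformin and 0.29 in control for miR-193b-3p. The change of the ratio with metformin was 0.04 (two-sided exact permutation p = 0.4, 0.5 after adjustment over 3 pairs). The level of this ratio compares different probes and is no ratio of abundances. The 2 sequences share 18 of 22 bases, and whether a probe for one also binds the other was not tested.

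Over the 6 arrays miR-365a-3p followed its genomic neighbours less closely than the paralogs followed each other. Its r with miR-193b-3p, encoded 5235 bases away from MIR365A, was 0.47, with a rho of -0.14 (exact permutation p = 0.54 for r and 0.80 for rho, adjusted 0.54 and 0.92). Its r with miR-193a-3p was 0.53, with a rho of -0.09 (exact permutation p = 0.40 for r and 0.92 for rho, adjusted 0.54 and 0.92). Both positive values rested on control replicate 1, where all 3 members had their lowest intensity. Without that array r was -0.94 with miR-193b-3p and -0.91 with miR-193a-3p over 5 arrays, although miR-365a-3p then ranged only between 42.0 and 46.0. These negative values depended on the scaling. On the same 5 arrays r was -0.69 with miR-193b-3p and -0.83 with miR-193a-3p after quantile normalization, and -0.30 and -0.25 after centring on the bright probes. With that centring and control replicates 1 and 2 both left out, r over 4 arrays was positive, at 0.27 with miR-193b-3p and 0.22 with miR-193a-3p. Over all 6 arrays the centred r was 0.45 with miR-193b-3p and 0.56 with miR-193a-3p. Once each group's mean was subtracted, r was 0.36 with miR-193b-3p and 0.43 with miR-193a-3p, and 0.49 and 0.62 after centring. Within the first 3 arrays of the deposit it was 0.63 and 0.78 in the same order, and 0.84 and 0.94 after centring. Within the last 3 it was -0.99 and -0.48, and 0.85 and 0.81 after centring. These within-set values rest on only 3 points each.

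The log2 ratio of miR-365a-3p to miR-193b-3p was -1.28 ± 0.22 with metformin and -1.11 ± 0.30 in control (SD, n = 3 each), a change of -0.17 (two-sided exact permutation p = 0.5, adjusted 0.5). The ratio of miR-365a-3p to miR-193a-3p changed by -0.14 (exact permutation p = 0.5, adjusted 0.5). Both changes rested on control replicate 2 and were 0.00026 and 0.0098 without it. With 3 arrays a group this permutation test cannot go below 0.1. It therefore could not decide whether miR-365 and the miR-193 pair differed in response.

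**Figure D3:**
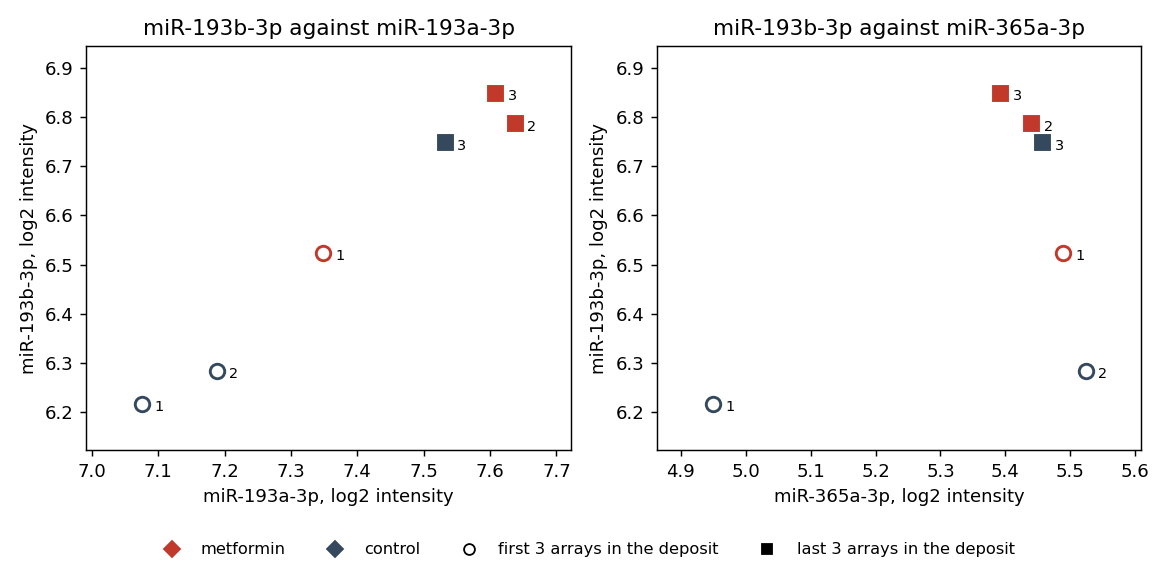
Log2 intensity of miR-193b-3p on the y axis against miR-193a-3p (left) and miR-365a-3p (right) on each of the 6 arrays, red for metformin and dark blue for control, numbered by replicate, with open circles for the first 3 arrays in the deposit and squares for the last 3. The paralogs lie along a line (r = 0.99), whereas for miR-365a-3p control replicate 1 stands apart and the other 5 arrays have r = -0.94 on this scale, against -0.30 after each array was centred on the bright probes.

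Such likeness was compared with that of the other 257 bright probes, as a description over 6 arrays that share their overall brightness. The median r with miR-193a-3p over those probes was 0.43, and 1 of the 257 had a higher r with it than miR-193b-3p had. With miR-193b-3p the median was 0.42, and again 1 probe was closer than miR-193a-3p. It was the same probe in both cases, MIMAT0000693, with r = 0.99 for each. After centring on the bright probes, 0 of the 257 were closer to miR-193a-3p than miR-193b-3p was, and the median r was 0.11. With the same centring 1 probe, MIMAT0000074, was closer to miR-193b-3p (r = 0.995) than miR-193a-3p was (r = 0.985). For miR-365a-3p the median r was -0.04. Of the 257 probes, 29 had a higher r with it than miR-193a-3p and 31 a higher r than miR-193b-3p, and the closest was MIMAT0000757 (r = 0.88). After centring these counts were 37 and 58. Seen from the other side, 107 of the 257 probes had a higher r with miR-193a-3p than miR-365a-3p had. For miR-193b-3p, 117 were closer than miR-365a-3p was. After centring, 54 and 73 probes were closer. The 3 probes named here are given by accession only, and were singled out after their values were seen.

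**Figure D4:**
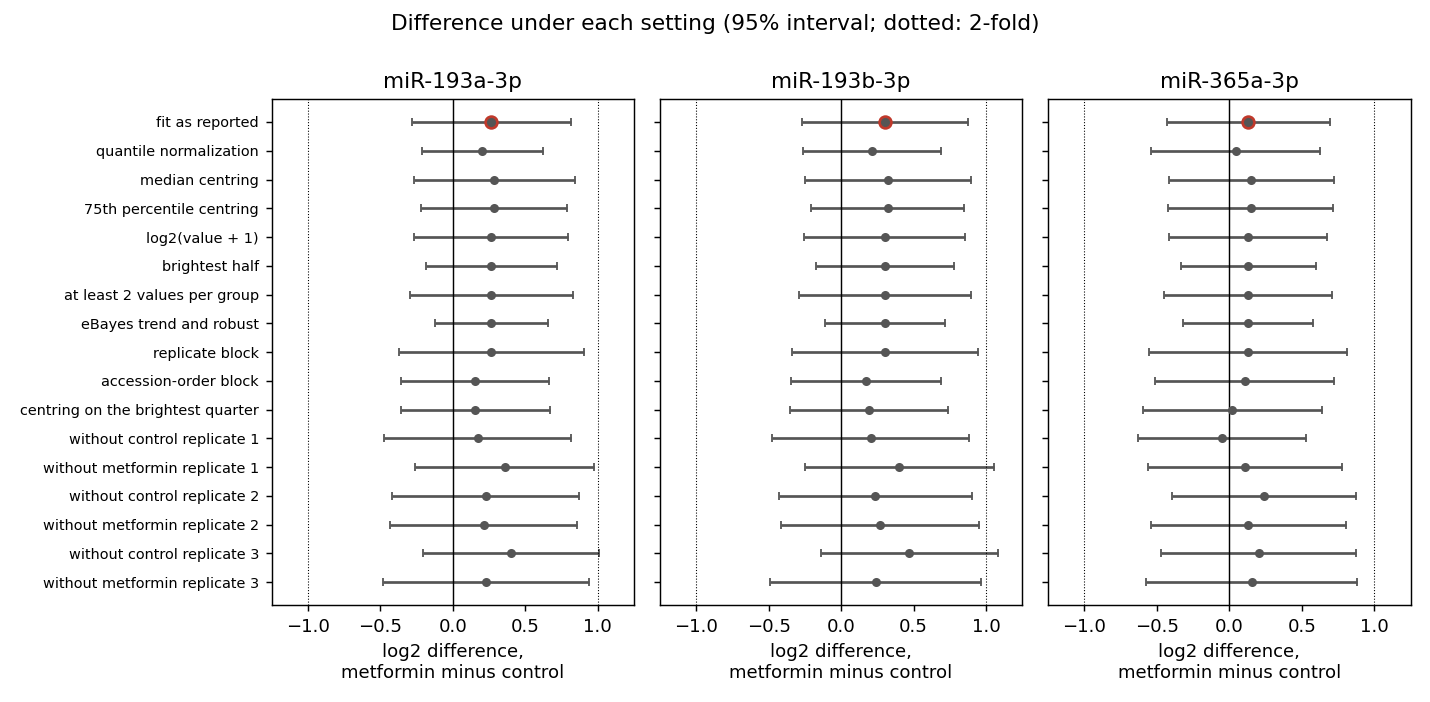
Log2 difference, metformin minus control, with its 95% interval for each member in the fit as reported (top, red) and under 16 other settings, where the vertical line marks 0 and the dotted lines a 2-fold change. Every interval spans 0, and the only point estimate left of 0 is that of miR-365a-3p without control replicate 1 (-0.05).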

How the data were processed

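MicroRNA arrays of 6 Huh7 samples, 3 with metformin and 3 control, were grouped by their titles. Per the labels, total RNA was labelled with Hy5. The deposited intensity values were processed by the authors and were treated as linear because of their range and distribution. How background and scaling were handled is not stated in the labels, and no scan file was used. The number of arrays limits the precision. From the values, log2 was taken with no pseudocount. The 1038 probes with 6 values were tested with limma 3.58.1 in R 4.3.3 (lmFit, eBayes, two-sided, no covariates), with Benjamini-Hochberg adjustment over all of them at 0.05. Single values were tested by exact permutation in scipy 1.17.1. The limma fit was tested on simulated data with far larger changes than those of the members and with noise independent between arrays. That test does not show whether changes as small as those of the members would be found. No label states that replicates are separate cultures, so the p-values reflect the spread among these samples only, which may be technical. Names were taken from the rule that chose the members, and sequences by name from RefSeq (GRCh38.p14); both members and lists were chosen with earlier results of these data known. Named probes were to be the members, the listed microRNAs and, per member, the 3 bright probes of highest r that carry a name in the reference tables; since these tables hold 0 mature accessions, none of the latter had a name. Replicate numbers shared by the groups are not stated to pair samples. Alternatives were other scalings, a pseudocount of 1, filters, moderation, blocks and leaving out each array; centring on bright probes (also without control replicate 1) and the values within sets were added after seeing the data. Plots were drawn with matplotlib 3.10.9.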

Additional observations from a re-analysis of the deposited data

How the results depend on the processing

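All 16 other settings called 0 members and 0 probes, whether higher or lower. miR-193a-3p and miR-193b-3p kept a positive difference in all 16, from 0.15 to 0.40 and from 0.17 to 0.47; when 1 array was left out the ranges were 0.17 to 0.40 and 0.20 to 0.47. For miR-365a-3p the range with 1 array left out was -0.050 to 0.24, negative without control replicate 1. With the replicate block the 3 differences stayed at 0.27, 0.30 and 0.13 for miR-193a-3p, miR-193b-3p and miR-365a-3p, each with an adjusted p of 0.993. Deviations of same-numbered samples correlated at 0.01, -0.27 and -0.02 over all probes and at 0.24, -0.26 and 0.44 over the 260 bright probes for numbers 1, 2 and 3. Since not every pair was positive and no label pairs the samples, the numbers were not taken as pairs. The number of probes at an unadjusted p under 0.05 was 28 as reported, 18 with trend and robust settings, 50 with the deposit-order block, 10 of the 519 brighter probes and 44 without control replicate 2. The change in ratio ranged from 0.0096 to 0.070 for miR-193b-3p over miR-193a-3p when 1 array was left out, from -0.30 to 0.00026 for miR-365a-3p over miR-193b-3p, and from -0.25 to 0.0098 for miR-365a-3p over miR-193a-3p. The Pearson r of the paralogs ranged from 0.98 to 0.996 with 1 array left out and no rescaling. After quantile normalization it was 0.94 over all arrays, with an adjusted exact permutation p of 0.05, and fell to 0.65 without the 2 farthest arrays. Without control replicate 1 it was 0.79 after quantile normalization and 0.99 after centring on bright probes. The cause was not tested. The r of miR-365a-3p ranged from -0.94 to 0.80 with miR-193b-3p and from -0.91 to 0.80 with miR-193a-3p when 1 array was left out. Alternatives for the other hairpin arms and the cyclin D1 list were not run, because their accessions could not be named. Signal over background is unknown for these probes.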
